A study of Mus musculus with 7 samples.

Results

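The genes described here encode the antigen receptors of T cells, the CD3 and accessory molecules that sit beside them, and the killer-cell lectin-like (Klr) receptors first known from natural killer (NK) cells. They were chosen by name or class from a table of 7091 genes measured in mouse epidermis. Every gene annotated as a T cell receptor segment was taken, with every gene whose symbol begins with Klr and the named genes Cd3e, Cd3g, Cd2, Cd5, Cd6 and Icos. This gave 17 genes of the 7091, namely 6 receptor segments, 6 CD3 and accessory genes and 5 Klr receptors. The authors' deposited table lists only genes with an adjusted p under 0.05 in their own comparison of the same libraries, 36.5% of the 19407 genes they adjusted over. Genes that are not in it, such as Cd4, Cd8a, Cd3d and Tcrg-C1, were not analysed here.

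RNA was sequenced in bulk from the epidermis of telogen (resting phase) skin of 7 mice, 1 library per mouse. The 4 mice labelled KA carried K14-CreERT;ABCA12-cKO, a conditional knockout of the keratinocyte lipid transporter Abca12 with a tamoxifen-activated recombinase under the K14 promoter, which is active in basal keratinocytes. The 3 controls were ABCA12-c/c mice with no CreERT, so the groups differ by the recombinase as well as by the deletion. Mice of both groups received tamoxifen in corn oil into the peritoneum at 8 weeks of age, dosed by weight (1 mg for each 40 g) over 3 consecutive days, and were sampled 2 weeks after it. KA libraries 1 and 2 came from males and 3 and 4 from females, and control library 2 from a male and 1 and 3 from females. Abca12 itself was not analysed here.

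A T cell reads antigen through a receptor of either a gamma and a delta chain or an alpha and a beta chain. Each chain joins a variable (V) segment to a constant (C) segment, and both kinds of receptor reach the surface only with the CD3 proteins. Healthy mouse epidermis is home to dendritic epidermal T cells, gamma-delta cells with an almost invariant receptor made from Tcrg-V5 and Trdv4, whose dendrites stay in contact with keratinocytes. Alpha-beta T cells and NK cells are scarcer there and more common in inflamed skin. In bulk RNA, fewer cells of a type and less RNA per cell cannot be told apart.

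The second exons of Tcrg-V5 and Trdv4, which hold most of the V region, are printed because this pair of V segments defines the resident epidermal receptor and both gave fewer reads in KA epidermis. Both stand as in the GENCODE M21 transcripts on GRCm38, at chr13:19192428-19192725 and chr14:54075217-54075515, on the plus strand. Capitals mark TACTACTGT, the codons for tyrosine, tyrosine and cysteine near the end of the V segment.

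Tcrg-V5: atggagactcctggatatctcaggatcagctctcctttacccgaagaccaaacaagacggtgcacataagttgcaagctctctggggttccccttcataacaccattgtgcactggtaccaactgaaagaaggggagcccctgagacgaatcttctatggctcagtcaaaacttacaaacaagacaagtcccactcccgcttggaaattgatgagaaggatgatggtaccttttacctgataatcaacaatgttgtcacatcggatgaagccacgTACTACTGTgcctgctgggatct

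Trdv4: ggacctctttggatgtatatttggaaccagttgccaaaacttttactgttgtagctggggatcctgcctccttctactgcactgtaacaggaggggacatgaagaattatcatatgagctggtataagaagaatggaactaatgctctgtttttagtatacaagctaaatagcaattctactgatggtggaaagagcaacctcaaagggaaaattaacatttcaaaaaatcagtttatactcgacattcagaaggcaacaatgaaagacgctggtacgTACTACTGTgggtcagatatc

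The table gives reads that the authors divided by a size factor per library, called normalised reads here, and all levels below are on that scale unless stated. Values are given in the order of replicate numbers, controls 1 to 3 and KA 1 to 4. Changes are log2 fold changes, KA over control, with their standard error (SE), from the quasi-likelihood test of edgeR, with p adjusted by the Benjamini-Hochberg method over all 6749 genes with enough reads to be tested. Of these, 6746 passed an adjusted p of 0.05 (percent called, 100%), 3554 higher in KA (52.7%) and 3192 lower (47.3%). Which direction was the more frequent depended on the scaling, with 48.1% of the genes called higher under trimmed-mean (TMM) and 46.3% under median-ratio (RLE) scaling, and 49.7% of those whose log2 change reached a size of 1. Since the table was itself selected on this contrast, a pass says little about any single gene, and nothing is read from the count of genes that passed. The direction, the size and the values by library carry the description. Of the 17 genes, 15 were tested and all 15 passed, 7 higher and 8 lower. Klrb1a and Klrg1 had too few reads for the test. With these, 8 of the 17 lay higher in KA and 9 lower, where 52.6% of all listed genes lay higher. The median log2 fold change was -0.70 over the 15 genes, the value of Cd3e, and 0.36 over all genes tested. As the 15 genes went both ways, their median is not a shift of the whole set. In 16 of the 17 genes no KA library overlapped a control library, as in 93.3% of all listed genes and 93.5% of those tested, and Trac was the exception.

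**Figure D1:**
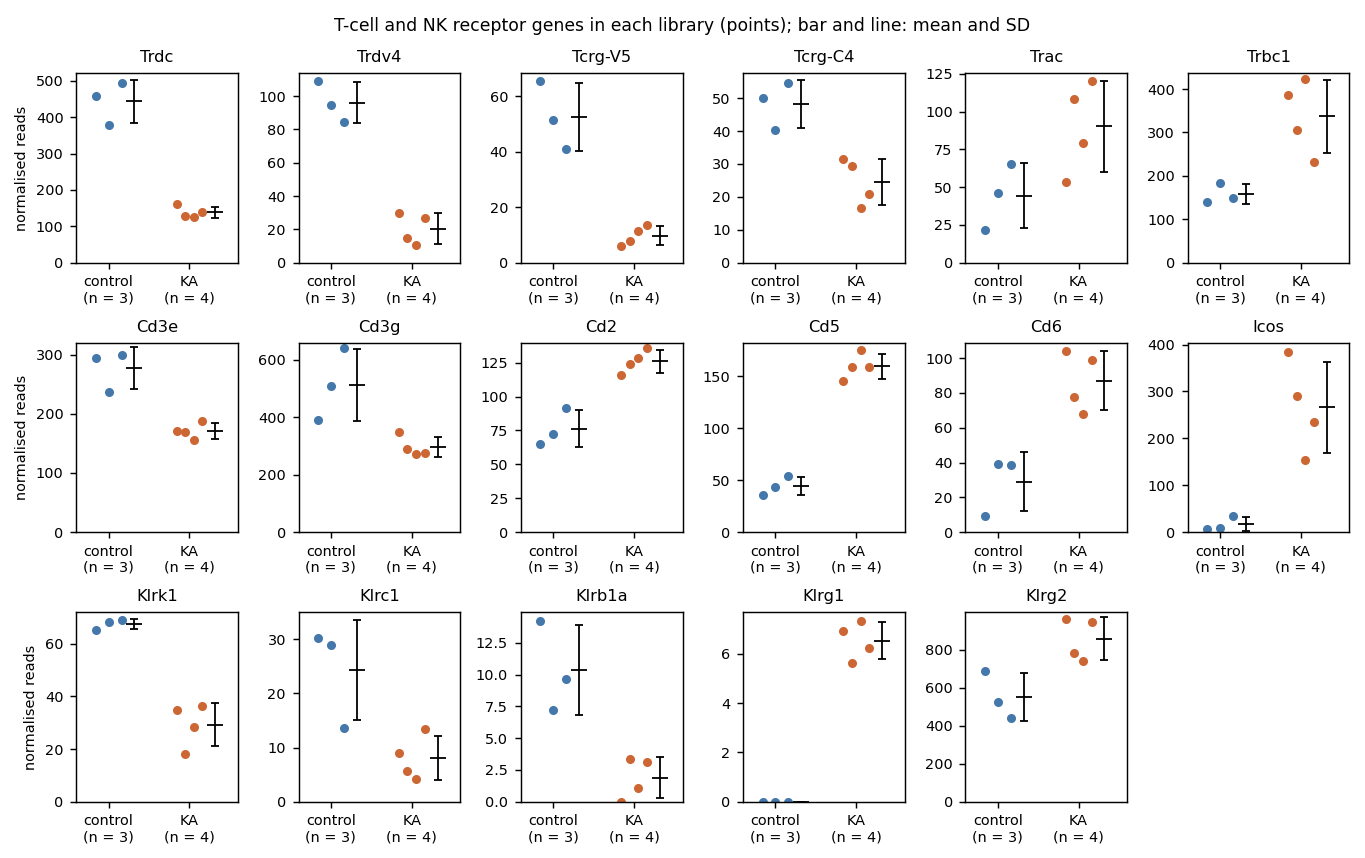
Normalised reads of each of the 17 genes (vertical axes, from 0, scaled per gene) in the 3 control and 4 KA libraries, with the group mean and SD beside the points. The gamma and delta chain genes, Cd3e, Cd3g, Klrk1, Klrc1 and Klrb1a lie lower in KA, and Trbc1, Cd2, Cd5, Cd6, Icos, Klrg1 and Klrg2 lie higher, while the groups overlap for Trac.

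All 4 gamma-delta receptor genes that the table lists gave fewer reads in KA epidermis, where 47.3% of all genes tested passed as lower. Trdc, the only delta constant segment (chromosome 14, 54142851 to 54148868, plus strand), had 457, 379 and 494 normalised reads in the controls and 160, 127, 126 and 139 in KA. The highest KA library lay well below the lowest control, and the means of 444 ± 58.5 (SD, n = 3) and 138 ± 15.8 (SD, n = 4) differ 3.21-fold. The fitted log2 fold change was -1.68 (SE 0.17, adjusted p = 2.73e-05, edgeR). Trdc shares 5.92% of its 50-base words with other annotated transcripts, mostly with Trdv5, which lies inside it on the opposite strand.

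Both V segments of the resident receptor showed larger fitted falls. Tcrg-V5 had 65.3, 51.5 and 40.9 normalised reads in the controls and 5.94, 7.89, 11.5 and 13.5 in KA, with no overlap. Its log2 fold change was -2.42 (SE 0.37, adjusted p = 0.000259, edgeR), and -3.07 over the 4 mice with the lower animal numbers alone. Trdv4, the delta V segment (chromosome 14, 54074905 to 54075515), had 109, 94.8 and 84.2 in the controls against 29.7, 14.6, 10.4 and 27.0 in KA. Every control had more than 2 times the reads of any KA library, and the log2 fold change was -2.22 (SE 0.35, adjusted p = 0.000328, edgeR). Neither V segment shares a 50-base word with another transcript in the annotation, though each has an annotated antisense gene across it.

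Tcrg-C4 is a gamma constant segment of another cluster than the one Tcrg-V5 joins to (chromosome 13, 19344558 to 19352756, plus strand). It had 50.2, 40.2 and 54.5 normalised reads in the controls and 31.7, 29.3, 16.7 and 20.8 in KA. The groups did not overlap, but the gap was the narrowest of the gamma-delta genes, with a log2 fold change of -0.97 (SE 0.32, adjusted p = 0.0134, edgeR). The call was lost over the lower animal numbers alone (adjusted p = 0.218) and with the replicate number as a block (adjusted p = 0.054), in a range of 0.00529 to 0.218 over the alternatives that set no minimum fold. Its fold also lies under a minimum log2 size of 1.

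Within each library the 4 gamma-delta genes did not keep 1 ratio to each other. Tcrg-C4 had 0.110, 0.106 and 0.110 reads per read of Trdc in the controls and 0.198, 0.230, 0.132 and 0.149 in KA, so every KA library had more Tcrg-C4 relative to Trdc. Tcrg-V5 per read of Trdc ran from 0.0828 to 0.143 in the controls and from 0.0370 to 0.0970 in KA, which overlap. The ratio of Trdv4 to Trdc overlapped too, at 0.220 ± 0.0429 (SD, n = 3) against 0.144 ± 0.0542 (SD, n = 4). No such shift of either V segment relative to Trdc was resolved beyond the spread between mice.

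The alpha-beta chain genes went the other way. Trbc1, a beta constant segment on chromosome 6 (41538218 to 41539881, plus strand), had 140, 184 and 148 normalised reads in the controls and 387, 305, 422 and 233 in KA. All KA libraries lay above all controls, with means of 157 ± 23.04 (SD, n = 3) and 337 ± 84.9 (SD, n = 4). The log2 fold change was 1.10 (SE 0.23, adjusted p = 0.00141, edgeR). Trac, the only alpha constant segment, on chromosome 14 (54220521 to 54224206), had 21.8, 46.4 and 65.0 in the controls and 53.4, 108, 79.4 and 120 in KA. Here KA library 1 fell below control 3, and the log2 fold change of 1.01 (SE 0.39, adjusted p = 0.0267, edgeR) was the least secure of the 15.

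For Trac the call was lost with TMM scaling (adjusted p = 0.0527), RLE scaling (0.0617), in females alone (0.0596) and with adjustment over the 19407 genes of the authors' comparison (0.0768). It was also lost without control 1 (0.097, log2 fold change 0.69), control 2 (0.0543), KA 2 (0.063) or KA 4 (0.0725), and its range over the alternatives was 0.0132 to 0.097. Its sign was the same in all of these.

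Trbc1 has a near-identical neighbour, Trbc2, which was not analysed here. The windows below are printed because they hold the single base of 375 that differs between the first exons of the 2 genes (identity 99.7%), marked by a capital. They lie at chr6:41538447-41538507 and chr6:41546959-41547019 on GRCm38, plus strand. A read that misses such a difference cannot be given to 1 of the 2 copies, and 40.54% of the 50-base words of Trbc1 also occur in Trbc2, so its level is uncertain.

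Trbc1: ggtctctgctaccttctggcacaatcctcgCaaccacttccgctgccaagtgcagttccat

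Trbc2: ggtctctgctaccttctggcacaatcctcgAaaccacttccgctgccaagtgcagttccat

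The balance of the 2 receptor kinds can be set within each library, where depth cancels. Normalised reads of Trdc and Tcrg-C4 together were 3.13, 1.83 and 2.57 times those of Trac and Trbc1 together in the controls. In KA the same ratio was 0.436, 0.379, 0.285 and 0.453. The gamma-delta sum was thus the larger in every control and the smaller in every KA library. Of 8 annotated constant segments only these 4 were listed, so each sum is a part of its receptor kind, without Tcrg-C1 or Trbc2. On the log2 scale the ratio moved by -2.68, and by -2.89 to -2.50 when each library was left out in turn. The sum of the gamma-delta constant segments went from 492 ± 65.9 (SD, n = 3) to 163 ± 20.7 (SD, n = 4), and that of the alpha-beta segments from 202 ± 35.5 to 427 ± 61.5. The ratio is a description of genes chosen together, and no test is given for it.

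Only the shift of that ratio, not its absolute value, compares chains, since reads grow with transcript length. Per kilobase of listed gene length, mean levels in the controls were 216 for Trdv4, 210 for Trbc1, 154 for Tcrg-V5, 115 for Trdc, 49.0 for Tcrg-C4 and 47.5 for Trac. In KA the order was Trbc1 at 449, Trac at 96.6, Trdv4 at 46.0, Trdc at 35.8, Tcrg-V5 at 28.5 and Tcrg-C4 at 25.0. Among the listed constant segments, the alpha-beta ones thus stood above the gamma-delta ones per kilobase in KA. In the controls Trdc stood between Trbc1 and Trac. On this scale the constant-segment ratio was 0.805, 0.472 and 0.685 in the controls and 0.128, 0.120, 0.0766 and 0.130 in KA, the same direction with a log2 shift of -2.52.

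**Figure D2:**
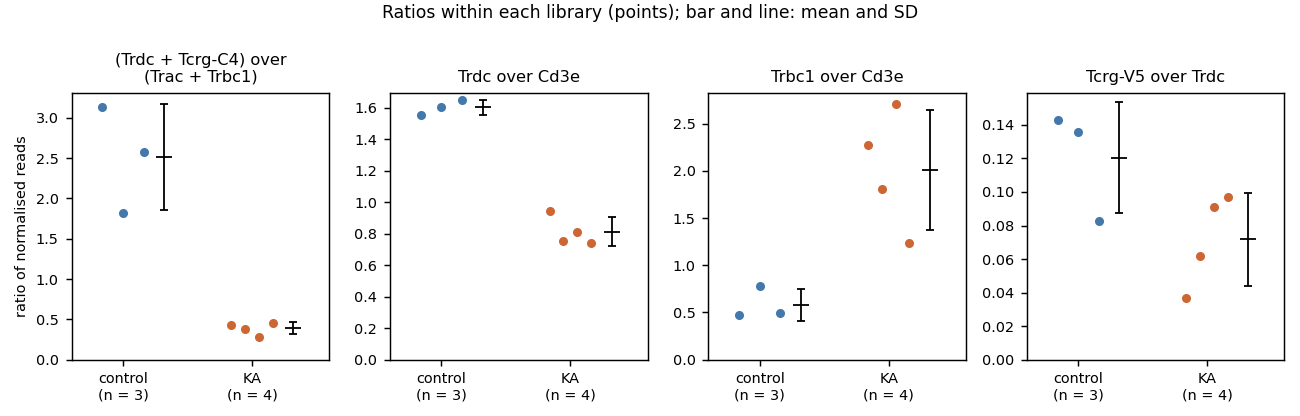
Ratios of normalised reads within each library (vertical axes, from 0) for constant segments of the 2 receptor kinds, Trdc over Cd3e, Trbc1 over Cd3e and Tcrg-V5 over Trdc, with group mean and SD beside the points. The first 3 ratios do not overlap between groups, and Tcrg-V5 over Trdc does, from 0.0828 to 0.143 in the controls and 0.0370 to 0.0970 in KA.

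The CD3 chains, which both receptor kinds need, had smaller fitted falls than the 4 gamma-delta genes. Cd3e (chromosome 9, minus strand) had 294, 236 and 300 normalised reads in the controls and 170, 169, 156 and 188 in KA. No KA library reached the lowest control, and the log2 fold change was -0.70 (SE 0.17, adjusted p = 0.00339, edgeR). Cd3g, its neighbour on the same strand, had 389, 509 and 641 in the controls and 348, 291, 274 and 276 in KA. Its log2 fold change was -0.79 (SE 0.18, adjusted p = 0.00259, edgeR). Control 1 and KA 1 were the closest pair for Cd3g, and the groups did not overlap. The ratio of Cd3g to Cd3e was 1.87 ± 0.477 (SD, n = 3) in the controls and 1.75 ± 0.236 (SD, n = 4) in KA, with overlap.

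Set against Cd3e in the same library, the chains separated further. Trdc per read of Cd3e was 1.55, 1.61 and 1.65 in the controls, a narrow band, and 0.942, 0.753, 0.812 and 0.740 in KA. Trbc1 per read of Cd3e was 0.476, 0.777 and 0.495 in the controls and 2.27, 1.81, 2.71 and 1.24 in KA. The delta constant segment was therefore lower, and the beta constant segment higher, than the fall in Cd3e alone would give, in every KA library. Trac over Cd3e did not overlap either, at 0.0740 to 0.217 in the controls and 0.314 to 0.641 in KA, while Tcrg-C4 over Cd3e did overlap.

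The 4 accessory receptors chosen by name, Cd2, Cd5, Cd6 and Icos, rose. Other T cell surface receptors in the table went both ways. Cd7 fell and Ctla4 rose, for example, both described further on. Cd2, an adhesion receptor whose mouse ligand is Cd48, had 65.3, 72.2 and 91.4 normalised reads in the controls and 116, 124, 128 and 136 in KA. The 4 KA libraries were close together, all above the controls, with a log2 fold change of 0.72 (SE 0.21, adjusted p = 0.00851, edgeR). Cd5, a scavenger-receptor family protein that damps T cell receptor signals, had 36.0, 43.3 and 53.7 in the controls and 145, 159, 175 and 159 in KA. Its spread within groups was small beside the shift, with a log2 fold change of 1.84 (SE 0.23, adjusted p = 7.85e-05, edgeR).

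Cd6, a relative and neighbour of Cd5 on chromosome 19, had 9.47, 39.2 and 38.5 normalised reads in the controls and 104, 77.7, 67.9 and 98.6 in KA. Control 1 was low, and the log2 fold change was 1.58 (SE 0.42, adjusted p = 0.0052, edgeR). Icos, a costimulator that T cells put on their surface after activation, showed the widest shift of the 15 tested genes. It had 7.57, 9.28 and 34.5 in the controls and 385, 291, 154 and 236 in KA, with a log2 fold change of 3.90 (SE 0.52, adjusted p = 0.000157, edgeR). Even the highest control lay far below the lowest KA library. Its size moved with the mice used, to 4.96 without control 3, 5.31 over the lower animal numbers and 3.17 in females alone. Cd2, by contrast, lost its call in females alone (adjusted p = 0.0691, in a range of 0.00289 to 0.0691).

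**Figure D3:**
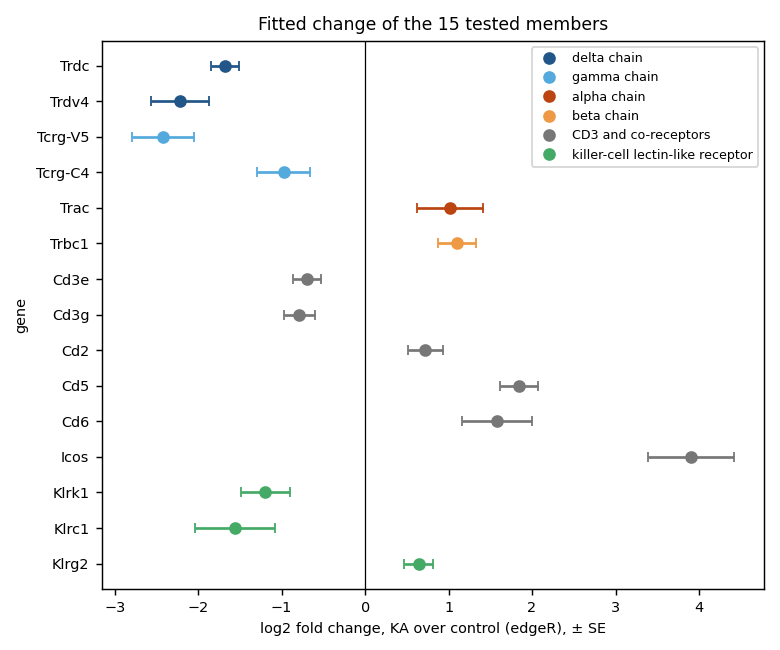
Fitted log2 fold changes, KA over control (horizontal axis), with SE as bars, for the 15 genes that were tested, coloured by role. Delta and gamma chains, Cd3e, Cd3g, Klrk1 and Klrc1 lie left of 0, and Icos lies farthest right at 3.90.

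The Klr receptors did not move one way. Klrk1, the activating receptor NKG2D carried by NK cells and by many T cells including dendritic epidermal T cells, had 65.3, 68.0 and 69.0 normalised reads in the controls. In KA it had 34.6, 18.0, 28.2 and 36.3, so all KA libraries were lower. The log2 fold change was -1.20 (SE 0.29, adjusted p = 0.00353, edgeR). Klrk1 per read of Trdc overlapped between the groups, at 0.140 to 0.179 in the controls and 0.142 to 0.261 in KA, while Klrk1 per read of Cd3e did not, at 0.222 to 0.288 against 0.107 to 0.203. Klrk1 therefore fell beyond Cd3e in every KA library, and its mean ratio to Trdc was 0.154 in the controls and 0.210 in KA.

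The other low Klr genes are given by range. Klrc1, the inhibitory receptor NKG2A, ran from 13.6 to 30.3 normalised reads in the controls and from 4.18 to 13.5 in KA, a gap of almost nothing between control 3 and KA 4. It passed the test as lower, but not in females alone (adjusted p = 0.101, in a range of 0.00341 to 0.101), and 38.57% of its 50-base words also occur in Klrc2 or Klrc3. Klrb1a, of the NKR-P1 family, had 34 reads in the 3 controls and 7 in the 4 KA libraries, a control-to-KA ratio of 5.67 with an exact 95% interval of 2.47 to 15.1 that covers counting error only. Klrg1, an inhibitory receptor that binds E-cadherin and marks terminally differentiated NK and T cells, had 0 reads in all controls and 25 in KA, 5.63 to 7.31 normalised reads per library. Against a floor of 3 reads in each control library, that is at least 2.35-fold higher.

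Klrg2 stood apart from the other 4 in level and place. It had 686, 527 and 439 normalised reads in the controls and 963, 783, 741 and 946 in KA, above every other gene of the set on this scale in all 4 KA libraries. The log2 fold change was 0.64 (SE 0.17, adjusted p = 0.0056, edgeR), and the call was lost in females alone (adjusted p = 0.0595, in a range of 0.00148 to 0.0595). Klrg2 lies at 38625693 to 38637242 on chromosome 6. Klrb1a, Klrk1 and Klrc1 lie between 128609227 and 129678973 on that chromosome, where the NK gene complex is, and Klrg1 lies apart from them at 122270596 to 122282882. Per kilobase Klrg2 had 161 in the controls and 251 in KA, against 9.39 and 4.08 for Klrk1.

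The values were also set side by side within sex and animal number. The animal numbers fall in a lower and a higher run, whose meaning the labels do not give. In each run and in each sex, all KA libraries lay beyond all controls in the pooled direction for 17 of 17 genes, with 2 against 2 mice in the lower run and in females and 1 control against 2 KA mice in the higher run and in males. The same held for 99.2% of all 7091 listed genes in the lower run, 97.3% in the higher run, 95.6% in females and 99.6% in males, so the count says nothing particular about the receptor genes. Trac, which overlapped in the pooled libraries, did not overlap within a run or a sex.

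Other genes of the T cell receptor pathway were split. Of 26 signalling genes, 11 were in the table and 10 were tested, and 5 rose and 5 fell. The 4 most abundant were Gata3, Tcf7, Cd7 and Fyn. Gata3, a transcription factor of T cells that keratinocytes and hair follicles also use, fell from a mean of 12933 to 4261 normalised reads (log2 fold change -1.60). Cd7, a T and NK cell surface protein, had 439, 356 and 494 in the controls and 115, 117, 190 and 213 in KA (-1.44), with no overlap. Fyn, a kinase that acts beside the receptor, rose by 0.67 on the log2 scale, a call lost in females alone. Tcf7, a T cell transcription factor, rose by 0.57 with overlapping groups, and its call was lost with TMM or RLE scaling, with the replicate block, in females alone and without control 2. With TMM or RLE scaling the list had 3 higher and 5 lower, and in females alone 2 higher and 4 lower. Cd247, the zeta chain of CD3, picked here after its values were seen, had 172, 186 and 210 in the controls and 108, 105, 72.1 and 90.3 in KA (-1.01), the same direction as Cd3e and Cd3g.

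Of 25 genes linked with skin-resident T cells, 10 were listed, of which 7 rose and 3 fell, with 5 rising in females alone, with the replicate block, with adjustment over 19407 genes, or without control 1 or control 2. The most abundant genes were Ahr, Ccr4, Itgae and Il2rg. Ahr, a sensor of aromatic compounds that keeps resident lymphocytes in epithelia and is also found in keratinocytes, fell by 0.43 on the log2 scale, a call lost in females alone. Ccr4, a skin-homing chemokine receptor, had 608, 583 and 440 normalised reads in the controls and 228, 127, 260 and 354 in KA (-1.16). Itgae, the integrin that binds E-cadherin, rose by 0.53 with overlapping groups, and that call was lost with TMM or RLE scaling, the replicate block or the wider adjustment, in females alone and without control 1, control 2, KA 2 or KA 4. Il2rg, the shared cytokine receptor chain, rose by 1.04. Xcl1, a chemokine made by dendritic epidermal T cells, chosen after its values were seen, had 93.7, 94.8 and 91.4 in the controls and 4.95, 22.5, 43.9 and 11.4 in KA. Its log2 fold change was -2.17, and -2.86 without KA 3. Ahr, Ccr4 and Xcl1 were the 3 that fell. The others that rose, also named after their values were seen, were Ccr8 (2.11), Gzmb (1.79), Cxcr6 (1.62), Il7r (1.51) and Cd69 (1.31). The call of Cd69 was lost in females alone, with the replicate block or the wider adjustment, and without control 1 or control 2. The list's median log2 fold change was 1.18.

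Of 24 cytotoxic and NK genes, 7 were listed, of which 3 rose and 4 fell. The 4 most abundant were Itga2, Tyrobp, Prf1 and Nkg7. Itga2, an integrin found on NK cells and on keratinocytes, fell by 0.93 on the log2 scale. Prf1, the pore-forming perforin, had 238, 208 and 257 normalised reads in the controls and 54.4, 49.6, 67.9 and 92.4 in KA (-1.83). Nkg7, a granule protein, fell by 1.43, and Tyrobp, the DAP12 adaptor shared with myeloid cells, rose by 0.92 with overlapping groups, a call lost in females alone. Prf1 per read of Trdc overlapped between the groups, at 0.520 to 0.549 in the controls and 0.340 to 0.664 in KA.

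Type 17 genes, those of T cells that make interleukin 17, were mostly in the table, 11 of 13, with 8 higher and 3 lower, or 6 higher and 1 lower in females alone. The list's median log2 fold change was 3.14, also with the genes without control reads set to their lower bounds. The 4 most abundant were Rora, Maf, Cd163l1 and Il18r1. The transcription factors among these 4 fell, Rora with a log2 fold change of -0.60 and Maf of -0.46. Their mean levels in the controls were 2963 and 1891 normalised reads. Both calls were lost in females alone, and that of Maf also with the replicate block and without control 2. Batf, another transcription factor of the list, picked after its values were seen, rose by 3.14. Il18r1, an interleukin 18 receptor chain, had 256, 252 and 299 in the controls and 116, 104, 101 and 101 in KA (-1.35). Cd163l1, a scavenger receptor known from interleukin 17-producing gamma-delta T cells, rose from 44.5, 46.4 and 62.6 to 529, 304, 122 and 128. The cytokines themselves, picked after their values were seen, came from near 0. Il17a had 0 reads in all controls and 163, 15.8, 6.27 and 19.7 normalised reads in KA, at least 18.4-fold higher against the floor, or at least 5.01-fold without KA 1, and its call was lost over the lower animal numbers alone. Il22 also had 0 in the controls, with 67.3, 48.4, 4.18 and 16.6 in KA (at least 12.3-fold higher, or 8.30-fold without KA 1). KA 1, a male, was the highest library for both.

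Genes of regulatory and activated T cells gave 7 of 13 in the table, 6 higher and 1 lower. The 4 most abundant were Ikzf2, Ctla4, Tnfrsf9 and Il2ra. Ctla4, the inhibitory partner of CD28, had 17.04, 25.8 and 16.04 normalised reads in the controls and 171, 196, 169 and 235 in KA (log2 fold change 3.30). Il2ra, the high-affinity interleukin 2 receptor chain, rose by 3.70, and Tnfrsf9, a costimulator induced on activation, rose by 3.52, or by 4.39 without control 3. Ikzf2 (Helios) was the 1 that fell, by 1.34, from a mean of 1720. Foxp3, the defining factor of regulatory T cells, picked after its values were seen, had 0.947, 5.15 and 4.81 in the controls and 50.4, 51.8, 50.1 and 69.6 in KA. Foxp3 per read of Trac was 0.0435, 0.111 and 0.0741 in the controls and 0.944, 0.479, 0.632 and 0.578 in KA, so it rose beyond Trac in every KA library.

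**Figure D4:**
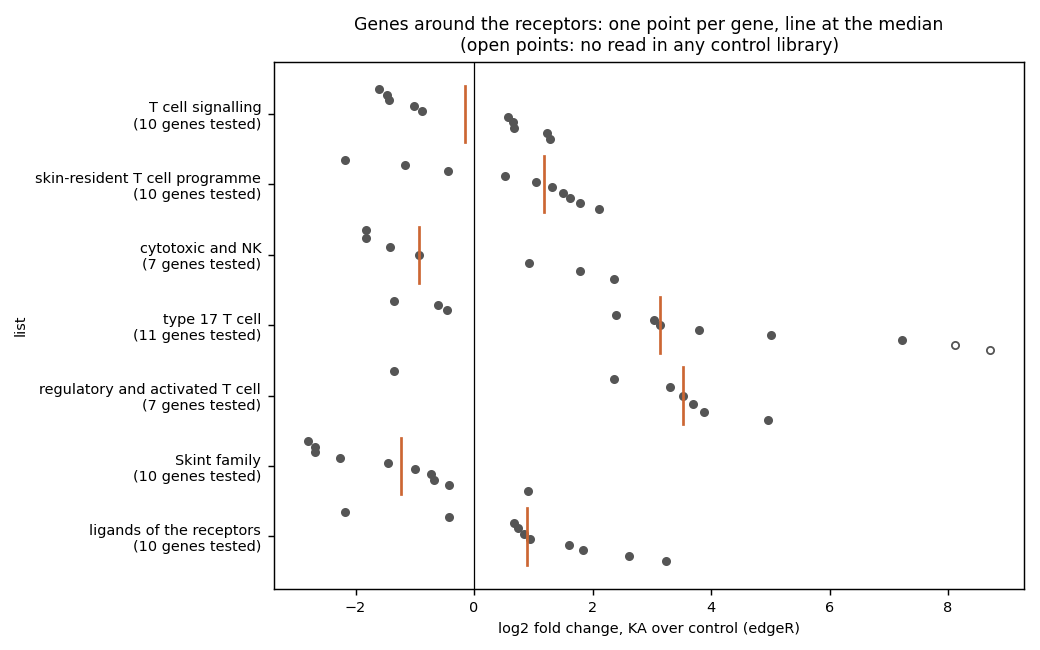
Fitted log2 fold changes, KA over control (horizontal axis), of the tested genes of 7 lists around the receptors, 1 point per gene, with a line at each list's median and open points for genes without a read in any control, whose fitted value is not a measured size. The Skint family lies left of 0 but for Skint1, and the type 17 and regulatory lists have medians of 3.14 and 3.52.

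The keratinocyte side of these receptors was in the table as well. The Skint genes encode butyrophilin-like proteins of keratinocytes and thymic epithelium, of which Skint1 is known to be needed for dendritic epidermal T cells to form. Of 11 Skint genes 10 were listed, of which 9 fell and 1 rose. Fewer fell in females alone (7) and without control 1 or control 3 (8 each), where the calls of Skint3, Skint8 or Skint2 were lost. Skint1 was the 1 that rose, from 512, 592 and 602 normalised reads to 909, 987, 1226 and 1153 (log2 fold change 0.91). The 4 most abundant were Skint3, Skint7, Skint10 and Skint4. Skint7 had 2795, 2924 and 3194 in the controls and 94.0, 229.8, 954 and 426 in KA, and its log2 fold change of -2.80 became -3.57 without KA 3. The log2 fold change was -2.68 for Skint10, -1.003 for Skint4 and -0.43 for Skint3.

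Among 30 genes of ligands and cytokines for T and NK cells, 10 were listed, of which 8 rose and 2 fell. Some of them, such as Cxadr and Il15, are not ligands of the receptors chosen here. In females alone 6 rose and 1 fell, and with TMM or RLE scaling 7 rose. The 4 most abundant were H2-T23, Cxadr, H60c and Cd72. H60c, a ligand of Klrk1 that keratinocytes make, had 725, 780 and 666 normalised reads in the controls and 1291, 1310, 1528 and 1445 in KA (log2 fold change 0.95), opposite to its receptor. Cxadr, the ligand of the epidermal T cell costimulator JAML, rose by 0.84, and Cd72, a B cell surface protein, rose by 0.73, a call lost in females alone. H2-T23 (Qa-1), the ligand of the Klrc1 receptor, fell by 0.43 with overlapping groups. Its call was lost in females alone, over the lower animal numbers, with the wider adjustment and without control 2, control 3, KA 1, KA 2 or KA 4, which leaves 1 lower gene in the list. Icosl, the ligand of Icos, picked after its values were seen, had 34.1, 56.7 and 52.9 in the controls and 335, 287, 238 and 314 in KA (2.61). Il15, a cytokine that sustains epidermal T cells, also picked so, had 217, 221 and 269 in the controls and 25.7, 47.3, 85.6 and 48.8 in KA (-2.18).

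Markers of the cells in the sample moved too, and their part in the receptor results was not tested. The tissue's own keratins were the most abundant marker genes, with Krt5 at 231909 and Krt14 at 116254 mean normalised reads in the controls, and of 6 keratinocyte markers 4 were listed, of which 3 rose and Krt15 fell, the call of Krt5 being lost with RLE scaling, the replicate block or in females alone. Of 10 T cell markers 6 were listed, of which 2 rose and 4 fell. Their sum ran from 1475 to 1858 in the controls and 1047 to 1227 in KA. Of these 6, 5 are receptor genes described above and the other is Cd247, so the sum is not a separate measure. Of 8 Langerhans cell markers 6 were listed and all 6 rose (sum 28361 to 39546 against 53400 to 79671), as did the 2 listed of 7 B cell markers (103 to 180 against 241 to 328). Of 10 myeloid markers 6 were listed, of which 3 rose and 3 fell (860 to 1130 against 1656 to 2005), and of 5 endothelial markers only Pecam1 was (11.4 to 17.6 against 34.5 to 55.4). None of the marker genes listed was at 0 in all libraries of a group. Of 5 melanocyte markers only Dct was listed, lower with overlapping groups (102 to 205 against 52.9 to 117), and its call was lost in 8 of the alternatives, among them females alone and without control 2, control 3, KA 1 or KA 4. Markers of mast cells, fibroblasts and muscle are not in the table and were not analysed here.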

How the data were processed

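Per the submitters' processing notes, fastp, STAR 2.6.1d, featureCounts 1.5.0-p3, DESeq2 1.40.2 and mm10 were used by the authors. The strand setting is not given in the sources used here. Per the file headers, the deposited table holds raw read counts per gene, the authors' normalised signal (each count divided by a size factor of 0.888 to 1.247 per library), and the authors' own comparison. The deposited comparison has a log2 fold change and its error, a score (their ratio), and raw and adjusted p-values. It lists 7091 of 19407 genes, and 9590718 to 12761458 reads per library fall on them, which is not the sequencing depth.

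Raw counts were tested with edgeR 4.0.16 (R 4.3.3), quasi-likelihood with robust dispersion, after filterByExpr, with Benjamini-Hochberg adjustment at 0.05. The authors' size factors replaced TMM, since factors from selected genes need not match the whole libraries. TMM and RLE shift the median of all genes by -0.14 and -0.17 on the log2 scale. limma 3.58.1 (voom) and DESeq2 1.42.0 served as alternatives. The code was tested on simulated data. Each library is 1 mouse.

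The genes and lists were chosen with earlier results of these data known. Genes with a mean of at least 20 normalised reads are given by library with their fold change, the others by counts and range, and each list by its counts and its 4 most abundant genes. Genes named beyond that are marked as chosen after their values were seen. Sequences and 50-base words shared between transcripts came from GENCODE M21 (GRCm38), with which 16 of the 17 genes share coordinates. Protein sequences were not used here. A gene of the type 17 list is not reported here. No column of another sample was present (0).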

Additional observations from a re-analysis of the deposited data

Results flagged for a closer look

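For 82 genes and ratios the 4 KA libraries, but not the controls, were examined for a library that stands far from the others. Of these 82, 5 had such a library, where chance gives about 4.1. Each is given with the gap to the nearest library as a share of the group's range.

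Il17a was high in KA 1 (163 normalised reads against 6.27 to 19.7, share 0.914), and so was Il17f (320.5 against 16.7 to 54.1, share 0.877). Il7r was also high in KA 1 (292 against 196 to 212, share 0.837), and Tigit was low there (9.89 against 29.2 to 33.2, share 0.8295). Foxp3 was high in KA 4 (69.6 against 50.1 to 51.8, share 0.913). None of the 17 receptor genes had such a library in KA, and their control libraries were not examined in this way.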

How the results depend on the processing

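No receptor gene or chain ratio reversed its direction under any alternative run, but the more frequent direction over all genes did. Of the genes called, 52.7% were higher in KA, against 48.1% with TMM, 46.3% with RLE and 49.7% at a log2 fold minimum of 1. The receptor genes called, 7 higher and 8 lower, were 7 and 7 over the lower animal numbers and 5 and 5 at that minimum. The 6746 listed genes that passed became 4081 in females alone and 2783 at a log2 fold change of at least 1. Of the receptor genes, 4 were higher in females alone, in place of 7, and 5 were lower under that fold minimum, in place of 8. The cause was not tested, beyond the fewer mice of the one and the stricter rule of the other. Leaving out each library in turn gave 6028 to 6649 genes in all, 6 to 7 receptor genes higher and 8 lower. Without the filter on low counts 7087 genes passed, and with limma-voom 6732 and DESeq2 6749. The other values of these results (68) stayed within 1.5 times the count or, for the chain ratio, moved by less than the pooled SD of the groups. For single receptor genes 282 values kept their call, while 18 lost it, 8 of them for Trac and 5 under the fold minimum.

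With the replicate number as a block, 6069 genes passed, with 7 receptor genes higher and 7 lower. Deviations of same-numbered libraries correlated at -0.19, 0.13 and -0.10, too few values to tell whether the mice were paired. Mice of the same number also share a letter in their labels, whose meaning is not given.

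A table that lists only genes called on the same contrast limits what the tests can show. Shared sequence limits Trbc1 and Klrc1, and few reads limit Klrb1a and Klrg1.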

Other observations

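Genes from the lists that the description above leaves out are given here as values, chosen after they were seen. Gzmb, named above by its fold change only, is among them. Blk, a kinase of B cells and of interleukin 17-producing gamma-delta T cells, had 3.79, 7.22 and 0 normalised reads in the controls and 219.6, 136, 46.0 and 56.1 in KA. Ccr6, a chemokine receptor of type 17 cells, had 3.79, 0 and 2.41 in the controls and 33.6, 43.9, 17.8 and 29.1 in KA. Il23r, their interleukin 23 receptor chain, ran from 0.947 to 2.41 in the controls and from 11.5 to 14.8 in KA. None of these 3 genes overlapped between the groups.

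Cd96, a receptor of T and NK cells, had 113, 122 and 170 normalised reads in the controls and 35.6, 28.2, 31.3 and 56.1 in KA. Trat1, a T cell receptor adaptor, had 195, 199 and 291 in the controls and 58.4, 65.3, 75.2 and 133 in KA. Gzmb, a granule protease, went the other way, from 4.73, 15.5 and 8.02 to 28.7, 30.4, 36.6 and 34.3. Pdcd1, the inhibitory receptor PD-1, had 0, 4.12 and 1.604 in the controls and 137, 59.7, 18.8 and 28.0 in KA. Perforin and granzyme B, which act together in killing, thus differed in direction in these libraries, and KA 1 was again the highest for Blk and Pdcd1.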
